A study of Mus musculus with 8 samples.

Results

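Interleukin-6 (IL-6) family signaling was followed in the pancreas through 10 genes chosen by name, all of them found among the 48709 genes of the expression files. They are the ligands *Il6*, *Lif*, *Osm*, and *Il11*, the receptor chains *Il6ra*, *Il6st*, *Osmr*, and *Lifr*, the transcription factor *Stat3*, and its feedback inhibitor *Socs3*. Total RNA of whole pancreas from 8-week-old male mice was sequenced 24 hours after saline or after palmitoleic acid (POA) with ethanol, a model of severe acute pancreatitis driven by fatty acid ethyl esters (FAEE-SAP). The libraries form 4 groups of 2, which are WT saline, WT FAEE-SAP, cKO saline, and cKO FAEE-SAP, and the design text calls the 2 libraries of a group biological replicates. The cKO mice carried floxed *Pfkfb3* alleles and Cre under the *Pdx1* promoter, which is active in the pancreatic epithelium, so blood-derived and stromal cells were not the cells targeted. WT mice came from a vendor and are not stated to be littermates of the cKO mice, so background and genotype cannot be told apart. All mice were fasted before induction. FAEE-SAP mice also received buprenorphine and had saline just before POA and ethanol, so the treatment compared is the whole procedure.

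Cytokines of this family signal through gp130, the shared chain encoded by *Il6st*. IL-6 and IL-11 first bind their own alpha chains, whereas leukemia inhibitory factor (LIF) engages gp130 with LIFR and oncostatin M (OSM) engages it with OSMR. Janus kinases on gp130 then phosphorylate STAT3, which enters the nucleus, induces acute-phase genes and *Socs3*, and is restrained by the SOCS3 protein. In acute pancreatitis, IL-6 is a marker of severity, and the pathway is known for acting both in the pancreas and in distant organs.

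The gene starts of *Socs3* and *Il6* are shown because *Socs3* had the largest treatment change in WT among the 6 genes abundant enough to test and *Il6* is the ligand the family is named for. Both are RefSeq promoter windows on GRCm38.p6, from 250 bases before to 50 bases after the start, read in the direction of the gene. The *Socs3* window is chr11:117969317-117969616 on the minus strand, and its capitals mark a STAT motif (TTCNNNGAA) that begins at position -154 from the start. The *Il6* window is chr5:30012864-30013163 on the plus strand, and its capitals mark an NF-kB motif (GGGA and TTTCC with any base between them) that begins at position -44.
Socs3: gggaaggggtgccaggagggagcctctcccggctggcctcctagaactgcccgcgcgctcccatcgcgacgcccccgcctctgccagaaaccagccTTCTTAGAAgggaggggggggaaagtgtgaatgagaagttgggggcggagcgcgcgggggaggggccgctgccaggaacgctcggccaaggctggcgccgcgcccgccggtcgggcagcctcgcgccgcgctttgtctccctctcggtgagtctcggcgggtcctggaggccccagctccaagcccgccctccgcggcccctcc
Il6: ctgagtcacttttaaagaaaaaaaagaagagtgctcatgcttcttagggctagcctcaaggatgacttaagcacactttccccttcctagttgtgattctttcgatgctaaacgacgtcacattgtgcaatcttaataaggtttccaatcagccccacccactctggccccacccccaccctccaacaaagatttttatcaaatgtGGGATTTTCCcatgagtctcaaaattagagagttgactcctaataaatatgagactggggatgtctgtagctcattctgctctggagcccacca
Searched on both strands, 9 of the 10 genes had windows, 11 windows in all, and *Osm* was not among them. The STAT motif was found in the *Socs3* window alone, against 8.30% of all 32851 promoter windows of this length. The NF-kB motif was found in the *Il6* window alone, against 0.411% of all windows. The AP-1 motif TGAGTCA was found in windows of *Il6*, *Lif*, and *Il11*, against 5.20% of all windows. No 2 matches overlapped. These matches describe the letters of the windows and are not evidence of binding in these libraries.

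The libraries held 22.9 to 37.8 M reads, worked out from the values, and 1 read on a 2 kb transcript corresponded to 0.0132 to 0.0218 RPKM (reads divided by exonic length and library depth). The 10 most abundant genes took 49.4% to 63.7% of the summed RPKM of a library, and this share was lowest in WT FAEE-SAP. Levels below are therefore scaled RPKM, in which each library was divided by the median ratio of its genes to the average of all 8 libraries. As deposited, without this scaling, the median gene was 1.24 log2 units higher with FAEE-SAP than with saline in WT and 0.57 higher in cKO. All 8 acinar markers were detected in every library, with a summed level of 56552 to 58648 scaled RPKM in WT FAEE-SAP, 140028 to 155840 in cKO FAEE-SAP, and 174609 to 240309 with saline. The targeted gene *Pfkfb3* was at 1.70 and 1.69 scaled RPKM in WT saline, 1.85 and 3.21 in WT FAEE-SAP, 0.880 and 2.10 in cKO saline, and 1.74 and 2.82 in cKO FAEE-SAP. A value for the whole gene includes the exons outside the floxed part and does not check the genotype, so WT and cKO are used as labeled.

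The first comparison asked how the family responded to FAEE-SAP in WT pancreas. *Socs3* and *Stat3* rose, about 9.55-fold and 3.42-fold, and no receptor chain passed the threshold. Of the 10 genes, 6 were abundant enough to be tested, 2 of the 6 were called, both higher, and 6.93% of all genes tested were called in this comparison (3.08% called higher). A gene was tested at 0.5 RPKM or more in at least 2 libraries and was called at an adjusted p-value under 0.05 with a change of at least 2-fold (limma, Benjamini-Hochberg). *Osmr* was under 0.5 RPKM in both WT saline libraries as deposited and entered through its FAEE-SAP values. The median log2 fold change of the other 5 genes was 0.37, and 0.72 with *Osmr*, against 0.02 for all genes tested. In whole tissue, fewer cells of a type and less RNA per cell cannot be told apart.

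The ligands were scarce in every library. *Il6* (chr5:30013114-30019981, plus strand, on GRCm38, as are the positions that follow) was listed at 0 in both WT saline libraries and at 0.248 and 0.117 scaled RPKM with FAEE-SAP, which corresponded to 28 and 18 reads. In cKO it was at 0 and 0.0592 scaled RPKM with saline and at 0.0570 and 0.0137 with FAEE-SAP, from 0, 3, 4, and 1 reads. Thus, both WT FAEE-SAP libraries were above the other 6 libraries, and the 2 cKO groups overlapped. Pooled over libraries, the 46 reads of WT FAEE-SAP were set against 3 reads over WT saline, about the 95% upper limit for a count of 0. On that limit, with the 46 reads taken as exact, the level was at least 6.19-fold higher than in WT saline. Between genotypes with FAEE-SAP, the pooled level was 4.95-fold higher in WT than in cKO (95% interval 1.97 to 16.0). These bounds and intervals cover counting error only and compare the libraries, not the conditions. When the minimum level was dropped so that *Il6* could be tested over replicates, its log2 fold change with FAEE-SAP was 1.69 in WT (SE 0.30, adjusted p = 0.0736) and 0.06 in cKO (SE 0.26, adjusted p = 0.9497), on the log2(scaled RPKM + 0.1) scale, which understates changes at low levels.

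*Lif* (chr11:4257557-4272514, plus strand) encodes the cytokine that signals through LIFR and gp130. It was at 0 and 0.0680 scaled RPKM in WT saline, 0.233 and 0.149 in WT FAEE-SAP, 0.0686 and 0.0110 in cKO saline, and 0.0637 and 0.0381 in cKO FAEE-SAP. As for *Il6*, both WT FAEE-SAP libraries were above the other 6. The pooled reads were 88 in WT FAEE-SAP against 7 in WT saline, a 5.08-fold difference in level (95% counting interval 2.36 to 13.0), and without the minimum level the log2 fold change was 1.33 (SE 0.37, adjusted p = 0.146).

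*Osm* (chr11:4236420-4241026, plus strand) encodes OSM, a product of myeloid cells and T cells. It was at 0.0639 and 0.0744 scaled RPKM in WT saline, 0.161 and 0.278 in WT FAEE-SAP, 0.0188 and 0.0422 in cKO saline, and 0.107 and 0.0730 in cKO FAEE-SAP. Both WT FAEE-SAP libraries were again above the other 6, and the 2 cKO groups did not overlap. Without the minimum level, the log2 fold change with FAEE-SAP was 1.02 in WT (SE 0.31, adjusted p = 0.170) and 0.47 in cKO (SE 0.17, adjusted p = 0.661). *Il11* (chr7:4772373-4782859, minus strand), which encodes a cytokine of stromal and epithelial cells, gave at most 8 reads in a library. Its levels were 0 and 0.105 scaled RPKM in WT saline, 0.0857 and 0.0235 in WT FAEE-SAP, 0.0636 and 0.0476 in cKO saline, and 0.103 and 0 in cKO FAEE-SAP. All 4 groups overlapped, and a difference in *Il11* was not detectable at this depth.

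**Figure D1:**
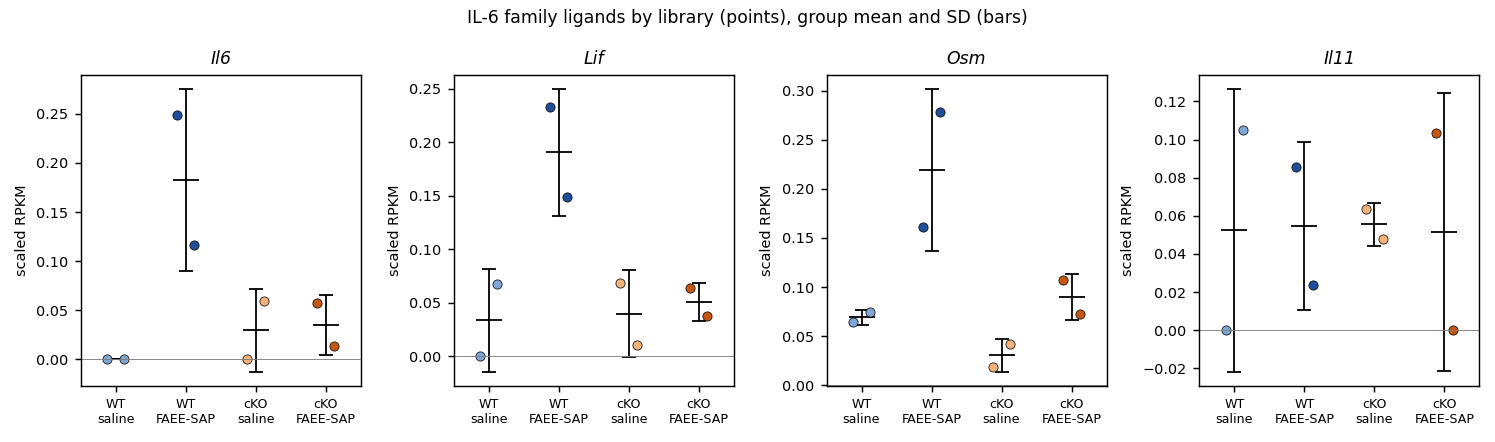
Levels of the 4 ligands in scaled RPKM (linear y axis) for each of the 8 libraries (points) with the mean and SD of each group (bars, n = 2). For *Il6*, *Lif*, and *Osm* both WT FAEE-SAP points lie above all other points, at 0.117 to 0.278 scaled RPKM, whereas the *Il11* groups overlap.

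Among the receptor chains, *Il6ra* (chr3:89864059-89913196, minus strand) encodes the IL-6 binding chain, which is prominent on hepatocytes and some leukocytes. It was at 2.62 and 1.93 scaled RPKM in WT saline, 1.90 and 3.99 in WT FAEE-SAP, 1.58 and 2.24 in cKO saline, and 1.25 and 2.50 in cKO FAEE-SAP. The groups overlapped, and the log2 fold change with FAEE-SAP was 0.28 in WT (95% interval -0.67 to 1.23, adjusted p = 0.688). The antisense gene *Gm42809* overlaps *Il6ra*, and whether counting used strand is not given in the sources used here. *Il6st* (chr13:112464070-112510086, plus strand), which encodes gp130, was at 4.72 and 6.12 scaled RPKM in WT saline, 6.36 and 7.66 in WT FAEE-SAP, 4.32 and 5.26 in cKO saline, and 6.54 and 4.18 in cKO FAEE-SAP. The WT groups did not overlap, but the difference was small, with a log2 fold change of 0.37 (95% interval -0.17 to 0.90, adjusted p = 0.335).

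*Osmr* (chr15:6813577-6874969, minus strand) encodes the chain that pairs with gp130 for OSM. It was at 0.571 and 0.565 scaled RPKM in WT saline, 1.03 and 1.63 in WT FAEE-SAP, 0.507 and 0.688 in cKO saline, and 0.643 and 0.709 in cKO FAEE-SAP. Both WT FAEE-SAP libraries were above all others, and the other 6 lay within 0.507 to 0.709. The log2 fold change in WT was 1.08 (SE 0.29, 95% interval 0.36 to 1.79) and did not pass the threshold (adjusted p = 0.0787), although it did when all 8 libraries were fitted in 1 model (adjusted p = 0.0459).

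*Lifr* (chr15:7090614-7197489, plus strand) encodes the chain that pairs with gp130 for LIF. It was at 19.8 and 11.4 scaled RPKM in WT saline, 8.77 and 9.21 in WT FAEE-SAP, 13.0 and 20.7 in cKO saline, and 8.99 and 20.1 in cKO FAEE-SAP. The WT FAEE-SAP libraries were below both WT saline libraries, and the 2 cKO groups overlapped. The log2 fold change in WT was -0.74 (95% interval -1.45 to -0.04, adjusted p = 0.163), and with the values as deposited it was 0.57, so its direction depended on the scaling.

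*Stat3* (chr11:100885098-100939540, minus strand) was at 3.14 and 2.38 scaled RPKM in WT saline, 6.79 and 13.5 in WT FAEE-SAP, 1.70 and 3.73 in cKO saline, and 3.08 and 4.26 in cKO FAEE-SAP. Both WT FAEE-SAP libraries were above the other 6. The WT mean was 2.76 ± 0.536 with saline and 10.1 ± 4.72 with FAEE-SAP (SD, n = 2). The log2 fold change was 1.77 (SE 0.36, 95% interval 0.89 to 2.66, adjusted p = 0.0429). This call was lost without WT saline replicate 1 (adjusted p = 0.0903), WT saline replicate 2 (0.109), or WT FAEE-SAP replicate 2 (0.137), and with no minimum level (0.0905) or no intensity trend in the variance (0.0600). *Stat5a* overlaps *Stat3* on the opposite strand and was at 0.859 to 1.15 scaled RPKM in WT saline and 0.732 to 0.758 in WT FAEE-SAP.

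*Socs3* (chr11:117966079-117970047, minus strand), whose promoter window holds the STAT motif shown above, was at 0.837 and 1.23 scaled RPKM in WT saline, 12.5 and 8.69 in WT FAEE-SAP, 1.06 and 1.92 in cKO saline, and 5.26 and 1.94 in cKO FAEE-SAP. Both WT FAEE-SAP libraries were above all others. The 2 cKO FAEE-SAP libraries differed from each other 2.71-fold, with replicate 1 between the saline and the WT FAEE-SAP libraries and replicate 2 at the level of cKO saline replicate 2. The WT mean was 1.03 ± 0.276 with saline and 10.6 ± 2.68 with FAEE-SAP (SD, n = 2). The log2 fold change was 3.26 (SE 0.28, 95% interval 2.56 to 3.95, adjusted p = 0.00458). With any 1 of the 4 libraries left out it stayed between 3.02 and 3.54, with adjusted p-values of 0.00586 to 0.0350.

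**Figure D2:**
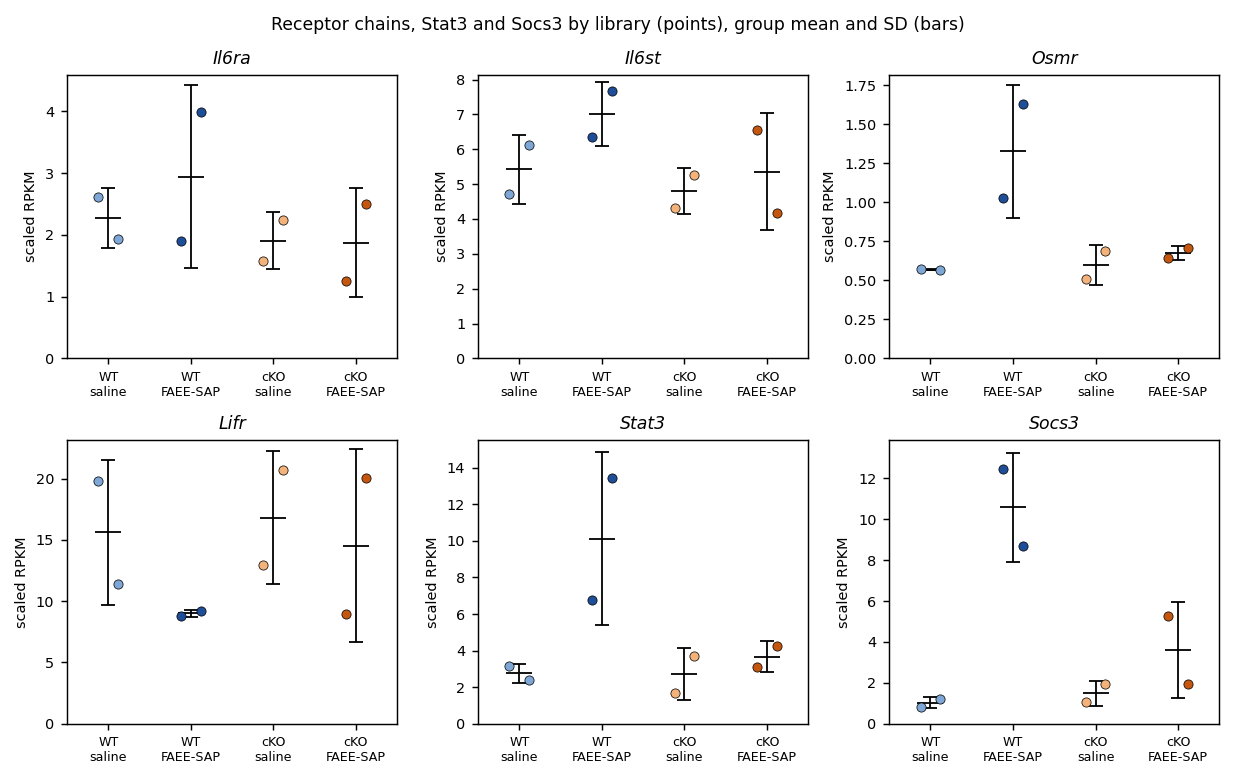
Levels of the 4 receptor chains, *Stat3*, and *Socs3* in scaled RPKM (linear y axis from 0, a different range in each panel) for each of the 8 libraries (points) with the mean and SD of each group (bars, n = 2). The WT FAEE-SAP points stand above all others for *Osmr*, *Stat3*, and *Socs3*, and the *Socs3* points of cKO FAEE-SAP lie apart at 5.26 and 1.94.

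Neutrophil markers moved with these changes. The summed level of the 7 markers was 1.32 and 2.24 scaled RPKM in WT saline, 59.4 and 54.1 in WT FAEE-SAP, 3.67 and 1.28 in cKO saline, and 19.8 and 12.6 in cKO FAEE-SAP, and 6 were tested in WT and rose, where 3.08% of all genes tested were called higher. Of the 6, 5 were under 0.5 RPKM in both WT saline libraries and entered through FAEE-SAP alone. *Mmp8* and *Ly6g* were at 0 in some libraries. The 6 macrophage or monocyte markers analysed summed to 48.8 to 72.0 scaled RPKM in WT FAEE-SAP and to 51.2 to 80.6 in the other libraries. None passed the threshold (limma, 0 of 6 at an unadjusted p-value under 0.05 in WT). With FAEE-SAP in cKO, 4 of the 6 were higher at such a p-value, against 9.42% of all genes tested, and 1 of the 6 entered through 1 group alone. Between genotypes with FAEE-SAP, 3 were higher in cKO at such a p-value, against 19.5% of all genes tested. The 4 genes of the hepatocyte list summed to 7.99 and 7.68 scaled RPKM in WT saline and 0.947 and 1.26 in WT FAEE-SAP. In cKO they summed to 19.4 and 6.85 with saline and 4.57 and 4.12 with FAEE-SAP. *Alb*, *Apoa1*, and *Serpina1a* were at 0 in some libraries. The 4 mesothelial markers summed to 1.98 and 2.66 in WT saline, 0.904 and 0.959 in WT FAEE-SAP, 4.66 and 2.86 in cKO saline, and 3.19 and 1.37 in cKO FAEE-SAP. In WT, 1 gene of each of these lists was tested, and the hepatocyte marker (*Ttr*, also an islet gene, named after its value was seen) fell by 2.72 log2 units. *Ttr* made up most of the hepatocyte sum in WT, at 6.95 and 7.52 scaled RPKM with saline and 0.848 and 1.26 with FAEE-SAP. The 5 islet markers summed to 285 and 242 in WT saline and 151 and 211 in WT FAEE-SAP. In cKO they summed to 323 and 265 with saline and 364 and 387 with FAEE-SAP. Of the 5, 2 were called lower in WT, and 2 were called higher in cKO than in WT with FAEE-SAP. The shares of all genes called were 6.93% and 1.27%. The part of these cells, and of the lower acinar level given above, in the levels of the family was not tested.

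In cKO pancreas, the same treatment gave 0 calls among the 6 genes tested (limma, 0 at an unadjusted p-value under 0.05), where 0.0531% of all genes tested were called. The log2 fold change of *Socs3* was 1.13 (95% interval -0.32 to 2.57, adjusted p = 0.575), and it was 0.43 without cKO FAEE-SAP replicate 1 and 1.88 without replicate 2. For *Stat3* it was 0.53 (95% interval -0.53 to 1.58, adjusted p = 0.684). For *Osmr* it was 0.18 (95% interval -0.43 to 0.80, adjusted p = 0.814). The intervals of *Stat3* and *Socs3* reach to changes of 2-fold and more, so a response of that size is within the error. The log2 fold changes of *Il6st*, *Il6ra*, and *Lifr* were 0.16, -0.05, and -0.25, and those of *Il6ra* and *Lifr* turned positive with the values as deposited.

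**Figure D3:**
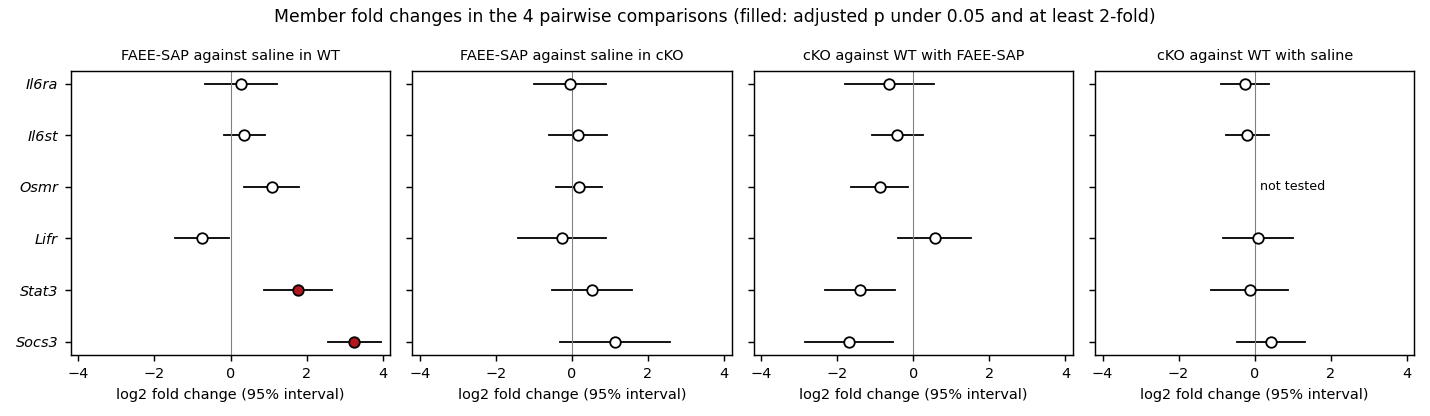
Log2 fold changes (x axis, points) with 95% intervals (lines) of the 6 genes tested, in 1 panel for each pairwise comparison, filled where the gene was called. The filled points are *Stat3* (1.77) and *Socs3* (3.26) with FAEE-SAP in WT. *Osmr* was under the minimum level in the saline comparison.

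The next comparison asked whether the family differed between cKO and WT pancreas with FAEE-SAP. None of the 6 genes tested was called (limma, 3 at an unadjusted p-value under 0.05, all lower in cKO), where 1.27% of all genes tested were called and 19.5% had an unadjusted p-value under 0.05. *Socs3* averaged 3.60 ± 2.35 scaled RPKM in cKO and 10.6 ± 2.68 in WT (SD, n = 2), and its 4 libraries did not overlap between genotypes. The log2 difference was -1.69 (95% interval -2.85 to -0.53, adjusted p = 0.154). Without cKO FAEE-SAP replicate 1, the library with the higher *Socs3* level of the 2, it was -2.37 (adjusted p = 0.0392), which passed, and without cKO FAEE-SAP replicate 2 it was -1.01 (adjusted p = 0.213), which did not. *Stat3* averaged 3.67 ± 0.835 scaled RPKM in cKO and 10.1 ± 4.72 in WT, with a log2 difference of -1.40 (95% interval -2.32 to -0.47, adjusted p = 0.145). *Osmr* averaged 0.676 ± 0.0465 scaled RPKM in cKO and 1.33 ± 0.426 in WT, with a log2 difference of -0.88 (95% interval -1.63 to -0.14, adjusted p = 0.202). Thus, for *Socs3*, *Stat3*, and *Osmr*, all cKO libraries were below all WT libraries, with unadjusted p-values of 0.0120, 0.0103, and 0.0276 that did not pass after adjustment. All 3 passed without the scaling (adjusted p = 0.0128, 0.00999, and 0.0104), a setting in which the median log2 difference of all genes was -0.91. The log2 differences of *Il6ra*, *Il6st*, and *Lifr* were -0.63, -0.42, and 0.57, with adjusted p-values of 0.516, 0.454, and 0.483. The *Lifr* difference was -0.39 with the values as deposited. This comparison shares its WT FAEE-SAP libraries with the treatment comparison in WT.

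With saline, 5 of the genes were tested and none was called (limma, 0 at an unadjusted p-value under 0.05), where 0% of all genes tested were called. The log2 differences of cKO against WT ranged from -0.26 (*Il6ra*) to 0.42 (*Socs3*), with adjusted p-values of 0.999. The interval of *Stat3* was -1.14 to 0.88 and that of *Socs3* was -0.47 to 1.32, so differences of about 2-fold are within the error.

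Whether the response to treatment differed between genotypes was tested directly as an interaction over all 8 libraries. None of the 6 genes was called (limma, 2 at an unadjusted p-value under 0.05, both lower), where 0.0719% of all genes tested were called and 12.6% had an unadjusted p-value under 0.05. The interaction was -2.13 log2 units for *Socs3* (95% interval -3.74 to -0.52, adjusted p = 0.301), -0.90 for *Osmr* (95% interval -1.77 to -0.03, adjusted p = 0.387), and -1.27 for *Stat3* (95% interval -2.73 to 0.18, adjusted p = 0.456). It was 0.45 for *Lifr*, -0.37 for *Il6ra*, and -0.24 for *Il6st*, and that of *Lifr* was -0.21 with the values as deposited. A difference in response between genotypes thus did not pass the threshold for any of the 6 genes. Among the ligands, with no minimum level, it was -1.41 for *Il6* (adjusted p = 0.431), -1.05 for *Lif* (0.531), and -0.40 for *Osm* (0.744).

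Ratios of 2 genes of the family within a library do not depend on how libraries are scaled. *Stat3* to *Il6st*, the transcription factor to the shared receptor chain, was 0.664 and 0.389 in WT saline, 1.07 and 1.76 in WT FAEE-SAP, 0.394 and 0.709 in cKO saline, and 0.470 and 1.02 in cKO FAEE-SAP. Both WT FAEE-SAP ratios were above the other 6. *Osmr* to *Lifr* was 0.0289 and 0.0494 in WT saline, 0.117 and 0.177 in WT FAEE-SAP, 0.0391 and 0.0333 in cKO saline, and 0.0716 and 0.0353 in cKO FAEE-SAP. The 2 WT FAEE-SAP ratios were again the highest, so in those libraries *Osmr* was higher relative to *Lifr* whichever scaling is used. *Il6ra* to *Il6st* overlapped among all groups, at 0.191 to 0.597. *Socs3* to *Stat3* was 0.267 and 0.516 in WT saline, 1.84 and 0.645 in WT FAEE-SAP, 0.624 and 0.515 in cKO saline, and 1.71 and 0.455 in cKO FAEE-SAP. In each genotype, replicate 1 with FAEE-SAP had the higher ratio, and replicate 2 lay near the saline libraries.

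**Figure D4:**
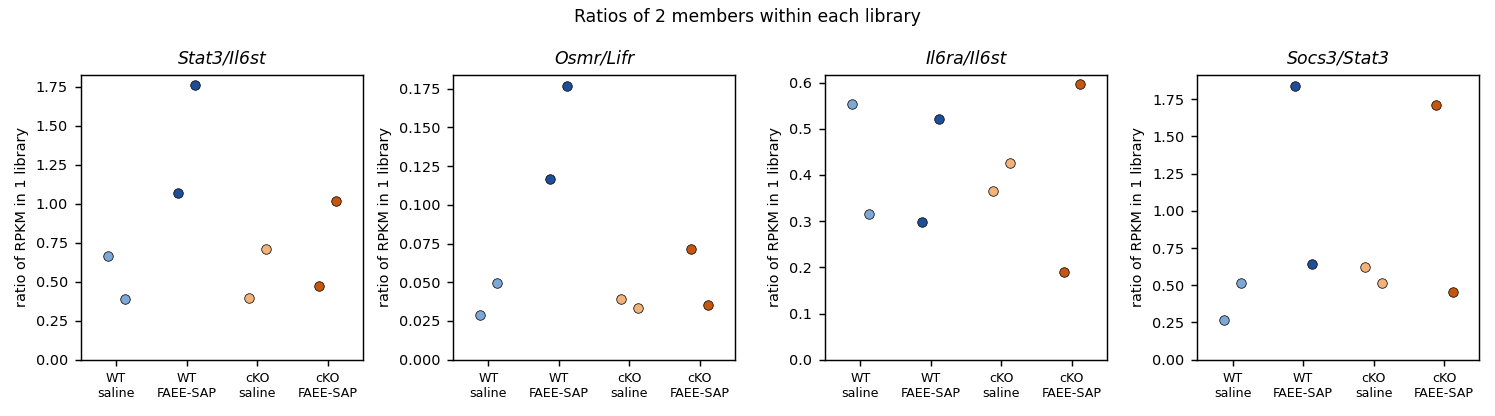
Ratio of the RPKM of 2 genes within each of the 8 libraries (points, linear y axis from 0) for 4 pairs of genes. For *Stat3* to *Il6st* and *Osmr* to *Lifr* both WT FAEE-SAP points lie above the other 6, whereas *Socs3* to *Stat3* is high in 1 library of each FAEE-SAP group (1.84 and 1.71).

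The order of levels also differed between groups. In WT saline, *Lifr* was the most abundant gene of the family (15.6 ± 5.91 scaled RPKM, SD, n = 2), followed by *Il6st* (5.42 ± 0.986), *Stat3* (2.76 ± 0.536), *Il6ra* (2.27 ± 0.488), *Socs3* (1.03 ± 0.276), and *Osmr* (0.568 ± 0.00454), with the 4 ligands below. Of these neighbors, only *Stat3* and *Il6ra* overlapped. The order of these 6 genes was the same in cKO saline, where *Il6ra* and *Socs3* overlapped as well. In WT FAEE-SAP, *Socs3*, *Stat3*, and *Lifr* came first at 10.6, 10.1, and 8.99 scaled RPKM and overlapped each other. *Il6st* followed at 7.01, below *Socs3* and *Lifr* in both libraries but overlapping *Stat3*. In cKO FAEE-SAP, *Lifr* stayed first at 14.5 ± 7.85, followed by *Il6st*, *Stat3*, and *Socs3*, which overlapped. The 4 ligands were the lowest in all groups.

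Other genes of the pathway were described as lists. Among the other gp130 cytokines and receptors, *Il11ra1*, the alpha chain for IL-11, had a log2 difference between FAEE-SAP and saline of -0.74 in WT (limma, adjusted p = 0.134). All 16 Jak-Stat signaling genes were tested in WT and none was called (limma, 3 at an unadjusted p-value under 0.05), with a median of 0.30, where 6.93% of all genes tested were called and 27.7% had such a p-value. Without the scaling, 13 of them were called. The kinase genes *Jak1*, *Jak2*, and *Tyk2* had log2 fold changes of 0.27, 0.32, and -0.06.

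Of 16 other negative regulators of the pathway, 15 were tested in WT and 1 was called, a share close to the 6.93% of all genes tested. This was *Ptpn2*, which encodes a phosphatase of Janus kinases and STAT proteins. *Ptpn2* was at 1.30 and 1.51 scaled RPKM in WT saline, 3.65 and 5.49 in WT FAEE-SAP, 1.35 and 1.21 in cKO saline, and 1.22 and 1.14 in cKO FAEE-SAP. The other 6 libraries lay within 1.14 to 1.51, below both WT FAEE-SAP libraries. It rose with FAEE-SAP in WT (log2 fold change 1.61, adjusted p = 0.0271), was lower in cKO than in WT with FAEE-SAP (-1.88, adjusted p = 0.0450), and stood at a log2 fold change of -0.08 with FAEE-SAP in cKO (limma, adjusted p = 0.9002). The first call was lost without WT saline replicate 1, WT saline replicate 2, or WT FAEE-SAP replicate 2, and the second without any 1 of its 4 libraries, with 0 genes of the list called in each case. Both calls were also lost with no minimum level, and the second with a pseudocount of 1 or no intensity trend. Its interaction was -1.72 (adjusted p = 0.151). The related inhibitors *Socs1*, *Socs2*, and *Cish* had log2 fold changes of 0.63, 0.98, and 0.11 in WT, with adjusted p-values of 0.461, 0.397, and 0.906.

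The list of genes known as IL-6 and STAT3 targets, mostly from other tissues, had the most calls. Of its 40 genes, 37 were tested in WT, 22 rose and 0 fell, where 3.08% of all genes tested were called higher. Of the 37, 9 were under 0.5 RPKM in both WT saline libraries and entered through FAEE-SAP alone, and 7 of these are among the 22. Of the other 28, 15 rose, with a median log2 fold change of 1.31. *Lcn2*, which encodes a siderophore-binding protein of neutrophils and injured epithelium, was at 0.849 and 1.01 scaled RPKM in WT saline and 258 and 259 in WT FAEE-SAP, a log2 fold change of 8.00 (adjusted p = 0.000120). The acute-phase genes *Saa2*, *Saa1*, and *Lrg1* rose by 6.40, 6.38, and 5.41 log2 units (the first and second among the 9), and *Reg3a*, a lectin gene of injured acinar cells, by 4.85. Without WT FAEE-SAP replicate 1 or replicate 2, 10 or 8 genes of the list were called. Of 22 genes upstream of *Il6*, most of them inducers but some inhibitors of NF-kB or factors of *Il6* mRNA decay (*Nfkbia*, *Zc3h12a*, and *Zfp36*, named after their values were seen), 21 were tested in WT and 8 rose, against the same 3.08% of all genes. Of the 21, 6 entered through FAEE-SAP alone, and 3 of these rose (*Il1a*, *Il1b*, and *Fosl1*), against 5 of the other 15. The 8 include *Zc3h12a*, which encodes a ribonuclease that degrades *Il6* mRNA (log2 fold change 1.64), *Il1b* (3.52), the Toll-like receptor adaptor *Myd88* (2.13), *Fosl1* (1.998), *Rela* (1.85), and the TNF receptor *Tnfrsf1a* (1.79). Calls in this list fell to 5 without WT saline replicate 1 or replicate 2, to 3 without WT FAEE-SAP replicate 1, and to 0 without WT FAEE-SAP replicate 2. The 2 lists share some genes, *Tnfrsf1a* among them.

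In cKO, 32 of the target genes were tested and 3 were called higher with FAEE-SAP, where 0.0531% of all genes tested were called. They were *Reg3a* (log2 fold change 7.73), *Reg3b* (5.96), and *Lrg1* (5.66), and 0 were called without cKO FAEE-SAP replicate 2. All 3 were also among the 18 of these 32 genes called in WT. At an unadjusted p-value under 0.05 (limma), 13 of the 32 were higher and 1 was lower in cKO, against 9.42% of all genes tested. Their median log2 fold change in cKO was 0.54, against -0.01 for all genes. Of the 32, 5 entered through FAEE-SAP alone and 0 of these were called, and the median of the other 27 was 0.44. *Lrg1* was at 5.08 and 7.62 scaled RPKM in cKO saline and 250 and 394 in cKO FAEE-SAP, against 10.7 and 10.98 in WT saline and 430 and 510 in WT FAEE-SAP. *Reg3b* was at 132 and 104 in cKO saline and 6086 and 8433 in cKO FAEE-SAP, against 771 and 567 in WT saline and 5881 and 4432 in WT FAEE-SAP. Of the 32 genes, 20 had the larger log2 fold change in WT. None of the other 4 pathway lists had a call in cKO (limma, 2 of 50 genes at an unadjusted p-value under 0.05, against 9.42% of all genes tested).

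**Figure D5:**
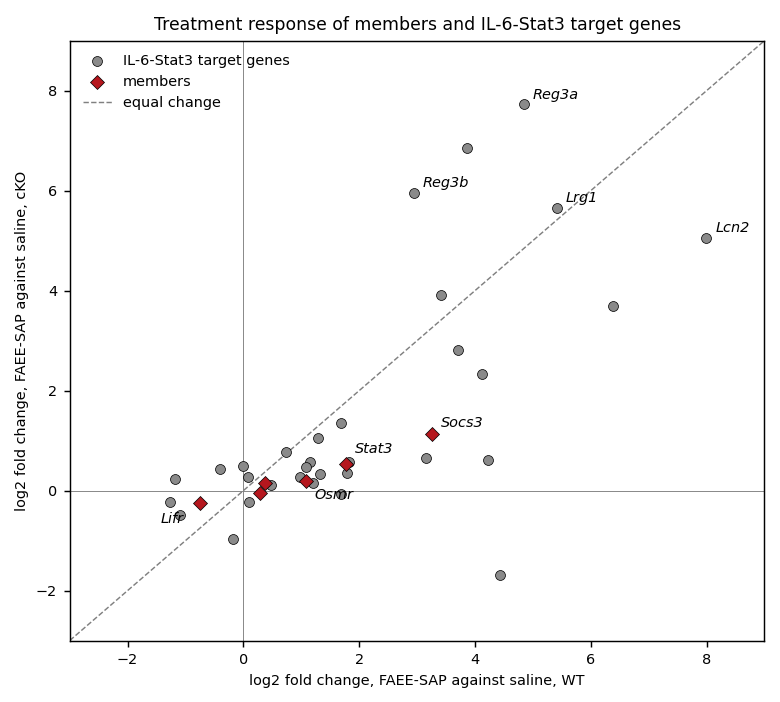
Log2 fold change with FAEE-SAP in WT (x axis) against that in cKO (y axis) for the 6 family genes tested in both (diamonds) and 32 target genes tested in both (circles), with a dashed line of equal change. *Socs3* (3.26 and 1.13) and *Stat3* (1.77 and 0.53) lie below the line, *Lrg1* lies near it (5.41 and 5.66), and *Reg3a* and *Reg3b* lie above it.

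Between genotypes with FAEE-SAP, 37 target genes were tested and 7 were called, all lower in cKO, where 1.27% of all genes tested were called, 45 of the 140 lower. Without 3 genes that entered through WT FAEE-SAP alone, 5 of 34 were called, with a median log2 difference of -0.64 against -0.01 for all genes. The 7 were *Saa3* (-5.56), *Saa2* (-4.97), *Fgg* (-3.97), *Saa1* (-3.55), and *Fga* (-3.28), and, named here after their values were seen, *Serpina3n* (-2.29) and *Junb* (-2.02). *Fgg* and *Fga* were under 0.5 RPKM in both cKO libraries and entered through WT FAEE-SAP alone. *Junb*, which encodes an AP-1 subunit, was at 14.7 and 19.9 scaled RPKM in WT FAEE-SAP, 4.17 and 4.19 in cKO FAEE-SAP, and 1.68 to 3.89 with saline. All 7 calls were lost without WT FAEE-SAP replicate 1 and without replicate 2. Of the 21 genes upstream of *Il6* tested, *Myd88* was called (-1.74, adjusted p = 0.0317), and no gene of that list was called without WT FAEE-SAP replicate 1, WT FAEE-SAP replicate 2, or cKO FAEE-SAP replicate 2. The other gp130 genes and the Jak-Stat signaling genes had 0 calls (limma, 1 of 8 and 1 of 16 at an unadjusted p-value under 0.05). At such a p-value, 17 of the 37 target genes were lower in cKO and 3 were higher. Of the 21 upstream genes, 12 were lower and 0 were higher, and 3 of the 21 entered through WT FAEE-SAP alone. The share of all genes tested with such a p-value was 19.5%. No gene of the 5 lists was called between genotypes with saline (limma, 6 of 68 genes at an unadjusted p-value under 0.05, against 2.15% of all genes tested). In the interaction, *Saa3* alone of the lists was called (-6.17), where 0.0719% of all genes tested were called.

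The genes whose levels followed the family most closely were ranked by Pearson correlation of the log2 levels over the 8 libraries, among 11133 genes. Closest to *Socs3* were *Adamts4* (r = 0.978), *Txn1* (0.977), and *Tpm4* (0.971). Closest to *Stat3* were *Xrn2* (0.989), *Khnyn* (0.988), and *Stk11ip* (0.987), and closest to *Osmr* were *Kctd20* (0.990), *Slc35c1* (0.989), and *Fbxo4* (0.987). For *Il6ra* they were *Fam117b* (0.978), *Ncoa6* (0.977), and *Otud7b* (0.965). Within the family, *Osmr* and *Stat3* followed each other (r = 0.978) more closely than *Socs3* followed *Stat3* (0.776) or *Osmr* (0.811). Of the 2 WT FAEE-SAP libraries, replicate 1 had the higher *Socs3* level, and replicate 2 had the higher *Stat3* and *Osmr* levels. *Lifr* ran opposite to *Il6st* (-0.785) and *Socs3* (-0.721). The 8 libraries include the 2 WT FAEE-SAP libraries that stand apart, and the points share scaling and base composition, so these values describe the libraries and carry no p-value.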

How the data were processed

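RNA-Seq of 8 pancreas libraries was used, 2 for each combination of genotype and treatment, grouped by their labels. Libraries were made with a directional kit, read in pairs, filtered with fastp, and mapped to Ensembl GRCm38.p6 in CLC Genomics Workbench. The authors deposited 1 table of RPKM per library with 48709 genes. How RPKM was computed, whether reads or pairs were counted, and whether counting used strand are not given in the sources used here. No read counts were used, so no count model was fitted.

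Because few genes take most reads, each comparison was scaled by the median of ratios to the geometric mean over genes above 0 in all its libraries. Genes with a deposited RPKM of at least 0.5 in 2 or more libraries were compared as log2(scaled RPKM + 0.1) in limma 3.58.1 (R 4.3.3, intensity trend, Benjamini-Hochberg adjustment over all genes tested). A gene was called at an adjusted p-value under 0.05 and at least 2-fold. The test was first tried on simulated data with known changes. That trial gave every gene the same dispersion, so it does not measure error rates in these libraries. The smallest p-value of an exact permutation test of 2 against 2 libraries is 0.33, and none is given. The p-values test a difference between group means against the spread between the 2 libraries of a group. This spread was moderated across all genes tested.

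Library totals were recovered from low values, since RPKM times exonic length and total has to give whole reads. For the 46325 genes (95.1%) matched by symbol to GENCODE vM21 on GRCm38, 84.2% to 85.6% of values under 20 reads were whole within 0.1, but reads summed to 100.3% to 105.7% of the totals, so reads per gene are approximate. For *Il11* most of them were not whole. Motifs were searched in RefSeq promoter windows.

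The 10 genes, the 5 pathway lists, and the marker lists were chosen with earlier results of these data known. The 10 genes are given in every library, each list by its counts and up to 5 called genes of largest change, and 3 most similar genes for *Socs3*, *Stat3*, *Osmr*, and *Il6ra*. Other genes of a list, named without a call to show its main members, were chosen after their values were seen. Of the markers, *Itgam* was not analysed here. Some results of the pathway lists are not reported here. Analyses used Python 3.11.15, numpy 2.4.6, pandas 2.3.3, scipy 1.17.1, and matplotlib 3.10.9.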

Additional observations from a re-analysis of the deposited data

How the results depend on the processing

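With the values as deposited, 5 genes of the family (*Il6ra*, *Il6st*, *Osmr*, *Stat3*, and *Socs3*) were called in WT with FAEE-SAP in place of 2, and the same 5 between genotypes with FAEE-SAP in place of 0, at a median change of all genes of 1.24 and -0.91 log2 units. Under that setting the *Lifr* change turned to 0.57 in WT, 0.36 in cKO, -0.39 between genotypes with FAEE-SAP, -0.18 with saline, and -0.21 in the interaction, and the *Il6ra* change in cKO turned to 0.53. In WT, 1 gene (*Socs3*) was called with no minimum level and with no intensity trend. By unadjusted p-values, *Stat3* and *Socs3* (2 genes) were called between genotypes with FAEE-SAP and *Socs3* (1 gene) in the interaction.

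With replicate number as a block, 1 gene (*Socs3*) was called in WT and 2 (*Stat3*, adjusted p = 0.0294, and *Socs3*, 0.0290) between genotypes with FAEE-SAP. It moved the calls over all genes from 755 to 442 in WT, from 5 to 52 in cKO, and from 140 to 568 between genotypes with FAEE-SAP. The labels name no pairing, and deviations of same-numbered libraries ranged in correlation over the 6 pairs of groups, across genes, from -0.522 between WT saline and cKO FAEE-SAP to 0.399 between the cKO groups. With 2 numbers and no named pairing, the numbers were not taken as pairs.

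With 1 library left out, the remaining library of its group was assumed to vary like the other groups, and the calls in the family ranged from 1 to 2 in WT and from 0 to 1 between genotypes with FAEE-SAP. Changes whose sign turned in such a fit ranged from -0.20 to 0.84 (*Il6ra*, WT), -0.45 to 0.42 (*Il6ra*, cKO), -0.15 to 0.54 (*Il6st*, cKO), -0.76 to 0.33 (*Lifr*, cKO), -0.0089 to 1.07 (*Stat3*, cKO), -0.030 to 1.17 (*Lifr*, between genotypes with FAEE-SAP), -0.41 to 0.0068 (*Il6st*), -0.28 to 0.45 (*Lifr*), and -0.67 to 0.40 (*Stat3*) with saline, and -0.88 to 0.15 (*Il6ra*), -0.55 to 0.070 (*Il6st*), and -0.13 to 1.04 (*Lifr*) in the interaction. None of these was called. *Socs3* and *Osmr* kept their signs under the settings run. Unadjusted p-values, no intensity trend, and the block leave a log2 fold change as it is, so under these only the call could move. Of 279 changes of single genes under the other settings, these included, 255 kept direction and call. The cause of these moves was not tested.

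Counts over all genes also moved: with no minimum level, 259 in WT and 0 in cKO, between genotypes with FAEE-SAP, and in the interaction. They were 7270, 15, 4427, 2 (saline), and 791 with the values as deposited. With all 8 libraries in 1 model they were 15 in cKO and 295 between genotypes with FAEE-SAP, and with no intensity trend 57 in the latter. In the interaction, 8 calls became 35 at a minimum of 2 RPKM, 24 and 1 with pseudocounts of 1 and 0.01, 3 with no intensity trend, and 0 with the block. Unadjusted p-values gave 1349, 280, 924, 59, and 782.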
